A study of Mus musculus with 144 samples.

Results

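The cells described here are the 21 Il1a-high cells among the 54 untreated cells of a series of 144 single retinal cells, set beside the 33 Il1a-low cells of the same time point. A cell was chosen by its own Il1a value: Il1a-high means an FPKM (fragments per kilobase of exon per 1e+06 assigned reads) of 20 or more, and Il1a-low means under 20. All cells came from the retinas of Iba1-EGFP mice 16 weeks old, a strain whose green fluorescent reporter is under the control of Iba1, which microglia share with other macrophages, and this allowed sorting. The untreated cells had no injury. The other cells, used here only for a parallel split, came from eyes 2 days (54 cells) or 4 days (36 cells) after crush of the optic nerve. The labels name no animal, so the untreated cells count as 1 sample. No test across cells was made. Differences are given pooled, and some of them also in each of the 3 plates. The plates held 5, 6 and 10 Il1a-high cells and 13, 12 and 8 Il1a-low cells.

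Il1a encodes interleukin-1 alpha, a cytokine that is active in its precursor form and that works as an alarm signal when it is released from stressed or dying cells. It acts through the type 1 interleukin-1 receptor and NF-kB to induce further inflammatory genes. Microglia are a main source of it in the central nervous system. Together with TNF, interleukin-1 alpha from microglia is known for changing the state of neighbouring astrocytes. Immediate-early genes such as Fos, Jun and Egr1 are transcribed within minutes of a stimulus without new protein synthesis. In microglia they are also known to respond to the digestion and sorting of tissue.

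Il1a (ENSMUSG00000027399, on the minus strand at chr2:129299610-129309972 of GRCm38) varied from 0.979 to 1366 FPKM in the untreated cells. Il1a-high cells had a lowest value of 28.99, a median of 739 and a highest value of 1366 FPKM, and Il1a-low cells had 0.979, 5.99 and 18.5 FPKM. The cells just inside the threshold had 28.99, 86.9, 127 and 181 FPKM, and those just outside it had 12.6, 13.3, 14.9 and 18.5 FPKM. These values chose the groups and support nothing further. No Il1a-low cell was at 0. Its Il1a value was a median of 0.465% of the highest Il1a value in a well of the same plate column, with a range of 0.0498% to 29.2%, and carry-over between wells was not tested. Il1a-high cells were found in each of the 6 plate columns, with between 2 and 6 of 9 cells. The exons of Gm14023 overlap those of Il1a, and Gm14023 was therefore left out with Il1a.

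Both groups carried markers of microglia, with fewer of them in some Il1a-low cells. At least 3 of 10 microglia markers reached 20 FPKM in 21 of 21 Il1a-high cells and 33 of 33 Il1a-low cells, with a median summed level of 10330 against 8863 FPKM. The number of these markers at 20 FPKM was 7 to 10 in Il1a-high cells and 3 to 9 in Il1a-low cells. At least 3 markers of another cell type reached 20 FPKM in 4 of 21 Il1a-high cells and 6 of 33 Il1a-low cells. Of these, 1 Il1a-high cell and 4 Il1a-low cells held markers of border macrophages, whose 8 markers had a median summed level of 18.99 FPKM (range 0.916 to 2992) in Il1a-high cells and 5.48 FPKM (range 0.136 to 6116) in Il1a-low cells, with 1 marker at 0 in every cell of either group. Müller glia markers reached that number in 1 Il1a-high cell and 0 Il1a-low cells, and cone markers in 0 and 1. Without these cells 1435 genes were higher, close to the count with them.

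More genes were detected in Il1a-high cells than in Il1a-low cells. The reads assigned to genes had a median of 4.98 M in Il1a-high cells (range 1.67 to 13.8, M standing for 1e+06) and 4.81 M in Il1a-low cells (range 0.710 to 12.7). By plate these medians were 3.57 against 4.49 M in plate 1, 5.95 against 6.63 M in plate 2 and 5.68 against 2.95 M in plate 3, Il1a-high against Il1a-low. The number of genes at an FPKM of 1 or more had a median of 3502 (range 2098 to 5597) in Il1a-high cells and 2361 (range 1136 to 4208) in Il1a-low cells. The difference of the medians was 810, 1201 and 1095 genes in plates 1, 2 and 3. Thinned to 2 M reads, and counting genes with 5 or more reads in place of the FPKM limit, 19 Il1a-high cells had a median of 3319 genes. By that count 31 Il1a-low cells had 2300. The top 20 genes of a cell held a median of 21.9% of the reads in Il1a-high cells and 29.4% in Il1a-low cells, and ribosomal protein genes took 1.71% and 3.45%. Malat1, an abundant nuclear long non-coding RNA, had 382, 1022 and 2608 FPKM (lowest, median, highest) in Il1a-high cells and 1.10, 55.9 and 2069 FPKM in Il1a-low cells, a log2 difference of 3.62. The part of RNA content, capture or nuclear RNA in any gene difference below was not tested.

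**Figure D1:**
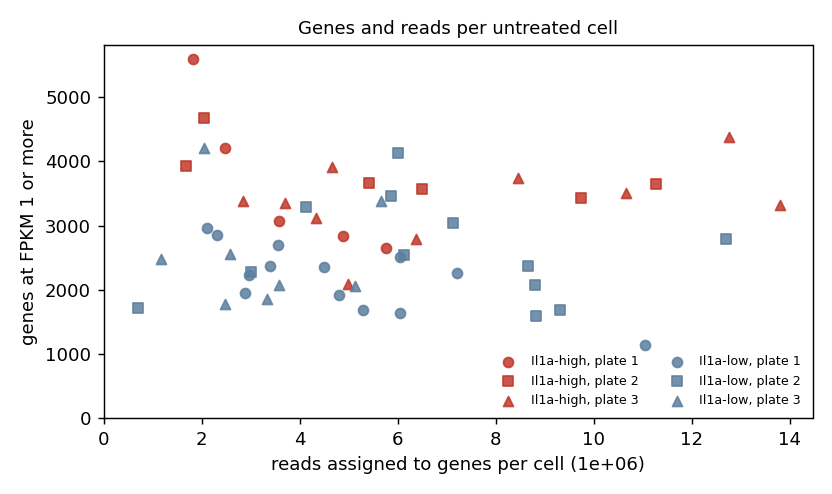
Genes at an FPKM of 1 or more (vertical axis) against assigned reads in units of 1e+06 (horizontal axis) for each untreated cell, by Il1a group (colour) and plate (symbol). The medians are 3502 genes in Il1a-high cells and 2361 in Il1a-low cells at pooled median depths of 4.98 and 4.81 M reads.

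Across the transcriptome the difference between the groups was mostly in 1 direction. A gene was counted as higher when mean log2(FPKM + 1) was greater by 1 or more in Il1a-high cells and above in each plate, and as lower in the mirror case. Of 7132 genes measured (FPKM of 1 or more in at least 10% of the 54 cells), 1443 (20.2%) were higher and 34 (0.477%) were lower. This filter took the 2 groups together, so a gene could pass it only through the group where it was high. The median difference of all 7132 genes was 0.47, with 0.55, 0.32 and 0.39 in plates 1, 2 and 3, so list medians below are given relative to this shift. With the number of genes per cell as a covariate the shift was -0.016, and 531 genes were higher and 436 lower. With the log2 of the mean FPKM in place of the mean of logs, 1055 were higher and 531 lower. When the cells of plate 1, 2 or 3 were left out and agreement was judged in the remaining 2 plates, 191, 112 and 105 genes were lower. Il1a itself and Gm14023 aside, no measured gene had values in the 2 groups that did not overlap (0 of 7132).

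The genes with the largest differences were immediate-early genes. Of the 27 immediate-early and stress genes listed, 24 were measured, and 19 of these were higher and 0 lower, against 20.2% of all genes. Their median difference stood 2.47 above that of all genes, with 2.48, 3.15 and 2.66 in plates 1, 2 and 3. It was 1.40 with the number of genes as a covariate. The members not counted as higher were Egr2, Klf4, Rgs1, Gem and Hspa1a, with differences between 0.84 and 2.00. Egr3, Dusp2 and Nr4a1 were below the measured level.

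Ier2, a nuclear protein induced early by growth factors, had 347, 1708 and 5703 FPKM (lowest, median, highest) in Il1a-high cells and 1.69, 13.2 and 4828 FPKM in Il1a-low cells, a log2 difference of 5.82 (5.05, 6.32 and 5.74 by plate). Btg2, which slows proliferation and promotes mRNA deadenylation, had 602, 1352 and 4661 FPKM in Il1a-high cells and 0.861, 12.1 and 5362 FPKM in Il1a-low cells, a difference of 5.59. For both genes every Il1a-high cell was high, while Il1a-low cells fell into a large low set and a small high set that overlapped the Il1a-high range. Egr1, a zinc finger transcription factor, had 772, 1747 and 6416 FPKM in Il1a-high cells and 2.05, 15.4 and 3414 FPKM in Il1a-low cells, a difference of 5.45. Zfp36, which encodes tristetraprolin, a protein that destabilises cytokine mRNAs, had 470, 1241 and 3163 FPKM in Il1a-high cells and 1.31, 10.3 and 3144 FPKM in Il1a-low cells, a difference of 5.33. All 21 Il1a-high cells reached 20 FPKM of Btg2 and of Zfp36, against 9 of 33 Il1a-low cells for each. Subunits of the AP-1 transcription factor followed the same pattern. Fos had 706, 2044 and 6357 FPKM in Il1a-high cells and 2.28, 26.4 and 8667 FPKM in Il1a-low cells, a difference of 5.15. The differences of Jun and Junb were 5.56 and 5.25. Reads of Jun and of its antisense neighbour Junos (4.69) cannot be told apart, because their exons overlap. The rest of the 12 largest positive differences were those of Ier5 (5.31), Mir142hg (5.13), the host transcript of a microRNA of blood cells, Ppp1r15a (4.88), which restarts translation after stress, and Klf2 (4.69), a transcription factor that restrains myeloid activation. Rhob, a small GTPase gene that is also induced early by stimuli, had 10.2, 124 and 666 FPKM in Il1a-high cells and 0.274, 3.69 and 135 FPKM in Il1a-low cells, a difference of 3.69. Exons of Zfp36 and Ppp1r15a, and further on of P2ry12, Cd9, Irf1, Milr1, Mrps18c and Rbbp4, overlap those of another gene, and strand was not used, so reads of the overlap cannot be assigned to 1 of them.

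**Figure D2:**
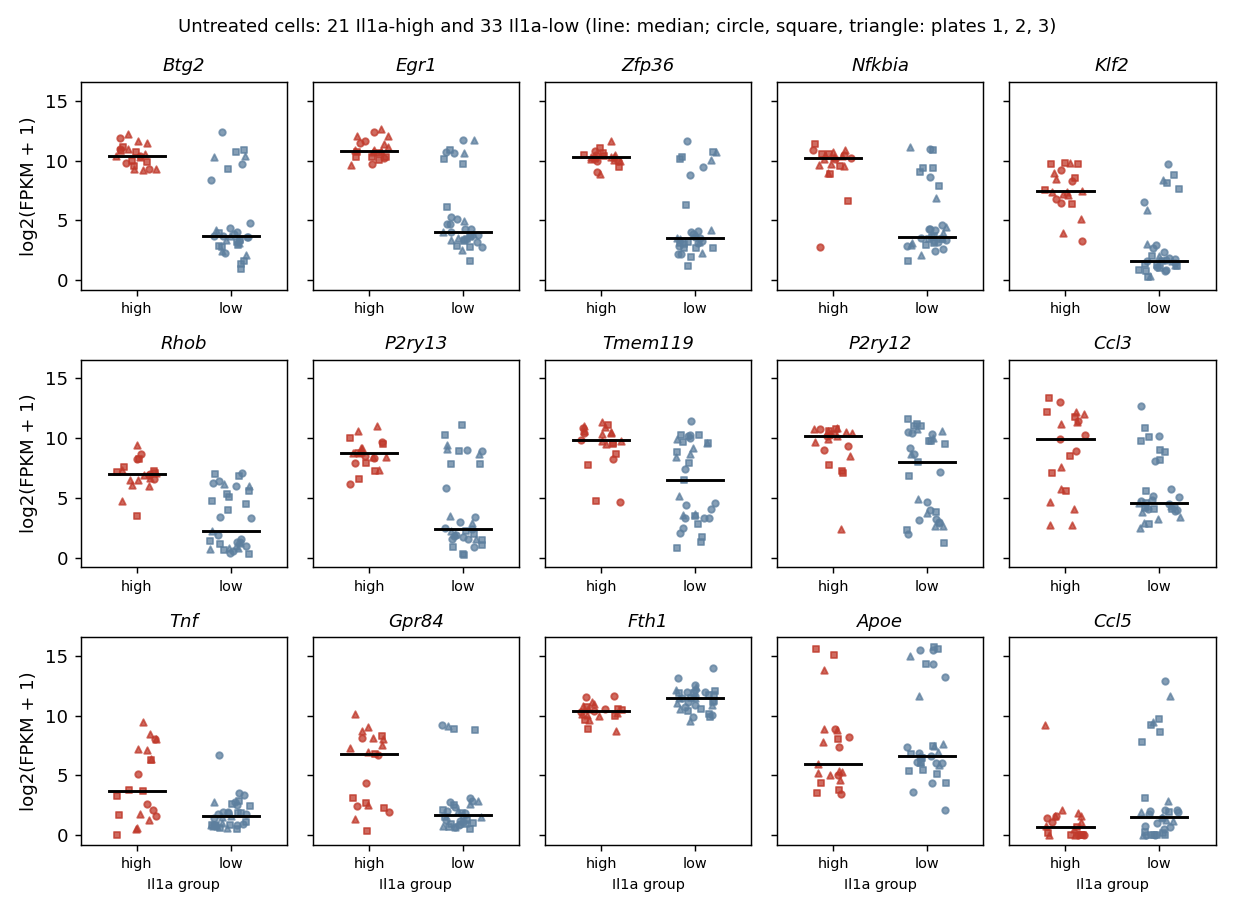
Log2(FPKM + 1) of 15 genes in each of 21 Il1a-high and 33 Il1a-low untreated cells, with the median of each group as a line and plates as symbols. Btg2, Egr1, Zfp36 and Nfkbia are high in nearly all Il1a-high cells and split the Il1a-low cells in a low and a high set, Tnf and Gpr84 are high in part of the Il1a-high cells, and the range of Fth1 is narrow in both groups.

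The immediate-early genes moved together from cell to cell. The mean log2(FPKM + 1) of the 24 measured members, here called the immediate-early score, had a lowest value of 5.34, a median of 6.61 and a highest value of 7.36 in Il1a-high cells, and 1.25, 2.43 and 7.24 in Il1a-low cells. No untreated cell had a score between 3.05 and 5.26, a gap of 2.22, while the next widest gap was 0.36. All 21 Il1a-high cells and 8 Il1a-low cells stood above the gap, and 25 Il1a-low cells stood below it. By plate the Il1a-low cells above the gap numbered 3, 3 and 2. High immediate-early expression was thus seen in every Il1a-high cell, but 8 of the 29 cells that showed it were Il1a-low. The score was examined after the data had been seen.

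**Figure D3:**
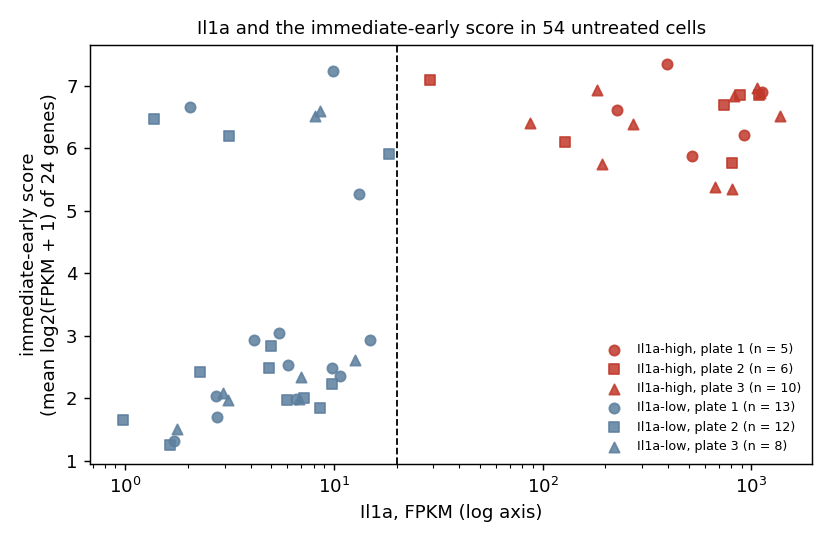
Immediate-early score (mean log2(FPKM + 1) of 24 genes, vertical axis) against Il1a FPKM (log axis) for the 54 untreated cells, by Il1a group (colour) and plate (symbol), with the threshold of 20 FPKM as a dashed line. The 21 Il1a-high cells lie at scores of 5.34 or more, and the Il1a-low cells form a lower set of 25 and an upper set of 8.

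The sequences before the starts of these genes are shown because Il1a and the immediate-early genes were high in the same cells. They are the 250 bases before the start of each gene, 5′ to 3′, taken from RefSeq with build GRCm38.p6. They are Il1a at chr2:129309973-129310222 (minus strand), Btg2 at chr1:134079156-134079405 (minus strand), Zfp36 at chr7:28379229-28379478 (minus strand) and Fos at chr12:85473640-85473889 (plus strand). Capitals mark matches on either strand to TGACG, the core of the cyclic AMP response element, to TGANTCA, the site of AP-1, to the CArG box of serum response factor and to the NF-kB motif. Overlapping matches run together.
Il1a: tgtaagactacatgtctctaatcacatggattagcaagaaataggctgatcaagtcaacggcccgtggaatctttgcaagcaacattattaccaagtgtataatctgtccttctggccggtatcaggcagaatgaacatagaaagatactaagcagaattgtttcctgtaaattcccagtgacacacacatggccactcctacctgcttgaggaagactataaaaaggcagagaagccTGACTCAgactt
Btg2: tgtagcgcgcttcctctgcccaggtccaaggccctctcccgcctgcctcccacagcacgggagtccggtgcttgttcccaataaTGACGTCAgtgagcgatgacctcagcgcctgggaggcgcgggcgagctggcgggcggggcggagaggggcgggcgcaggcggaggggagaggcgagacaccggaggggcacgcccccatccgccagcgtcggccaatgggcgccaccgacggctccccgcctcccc
Zfp36: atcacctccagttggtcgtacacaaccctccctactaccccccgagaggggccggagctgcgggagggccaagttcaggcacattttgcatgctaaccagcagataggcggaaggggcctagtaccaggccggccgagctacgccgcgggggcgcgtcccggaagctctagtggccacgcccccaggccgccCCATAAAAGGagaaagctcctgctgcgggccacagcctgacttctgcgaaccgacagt
Fos: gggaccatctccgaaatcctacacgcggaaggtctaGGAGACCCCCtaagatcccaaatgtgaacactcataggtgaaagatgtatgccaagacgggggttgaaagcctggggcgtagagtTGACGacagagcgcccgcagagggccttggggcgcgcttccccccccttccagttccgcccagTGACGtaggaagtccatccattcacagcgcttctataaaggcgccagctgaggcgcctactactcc
Il1a held 1 match to the AP-1 letters, beside its start, and none to the other motifs. Btg2 held TGACG on both strands at 1 place, Fos held TGACG at 2 places and 1 NF-kB motif, and Zfp36 held 1 CArG box. Of the 12 genes with the largest positive differences, 9 had entries, and 5 of these held TGACG (Btg2, Junb, Fos, Ppp1r15a and Klf2), against 17.8% of the 32851 entries of the promoter table. The AP-1 letters were in 1 of the 9 (Junos, which has 7 listed starts), the CArG box in 1 and the NF-kB motif in 1, against 6.75%, 1.47% and 7.25% of all entries. Jun and Ier5 held none of these motifs. Of the 12 largest negative differences, 7 had entries, of which 1 held TGACG and 0 held another motif. A gene counted if any of its starts held a match, while the shares are of single entries, measured genes or not. A match is a description of letters and not evidence of binding.

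Genes of the NF-kB pathway, which interleukin-1 and TNF receptors activate, were also higher. Of the 13 measured of 20 listed, 8 were higher and 0 lower, against 20.2% and 0.477% of all genes. Their median stood 1.04 above that of all genes (0.91, 2.39 and 0.66 by plate). Nfkbia, the inhibitor that NF-kB induces against itself, had 5.72, 1164 and 2639 FPKM in Il1a-high cells and 1.97, 11.4 and 2274 FPKM in Il1a-low cells, a difference of 4.66. It reached 20 FPKM in 20 of 21 Il1a-high cells and 11 of 33 Il1a-low cells. Cd83, a surface protein of activated myeloid cells, and Icam1, an adhesion molecule, differed by 2.92 and 2.72, and reads of Icam1 are shared with an overlapping transcript. The subunit genes Rel and Rela differed by 1.51 and 1.71. This list also holds Zfp36, which is among the largest differences. With the immediate-early score as a covariate, a comparison added after seeing the data, the list stood at -0.038 relative to all genes and Cd83 at -1.04. Only 8 Il1a-low cells stood above the gap of that score, where all 21 Il1a-high cells were. Values with this covariate, here and below, therefore compare few cells of like score.

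Among cytokines, the 2 genes that the study's title names beside Il1a were high in part of the Il1a-high cells. Tnf, the tumour necrosis factor gene, had 0, 12.2 and 704 FPKM (lowest, median, highest) in Il1a-high cells and 0.406, 2.04 and 103 FPKM in Il1a-low cells. The log2 difference was 2.47, with 1.48, 1.70 and 3.83 by plate. Gpr84, a receptor that medium-chain fatty acids activate in myeloid cells, had 0.268, 112 and 1152 FPKM in Il1a-high cells and 0.404, 2.14 and 602 FPKM in Il1a-low cells. The difference was 3.07, with 2.42, 1.34 and 4.31 by plate, and its exons overlap those of Gm49482. Both ranges overlapped between the groups. Tnf was no longer counted as higher with the number of genes (1.65) or the immediate-early score (1.92) as a covariate, nor Gpr84 with the log2 of the mean FPKM (1.52). These values still exceed 1, and the count was lost because the difference was not above 0 in every plate. Tnf reached 20 FPKM in 9 of 21 Il1a-high cells (42.9%, exact Clopper-Pearson 95% interval 21.8% to 66.0%) and 1 of 33 Il1a-low cells (3.03%, 0.0767% to 15.8%). These intervals and those below cover counting error only, not spread between animals, and are no test between the groups. Gpr84 reached it in 12 of 21 Il1a-high cells (57.1%, 34.02% to 78.2%) and 4 of 33 Il1a-low cells (12.1%, 3.40% to 28.2%). By plate, Tnf reached it in 2 of 5, 1 of 6 and 6 of 10 Il1a-high cells, and Gpr84 in 2 of 5, 2 of 6 and 8 of 10. Both were at 20 FPKM in 6 of the 21 Il1a-high cells, Tnf alone in 3, Gpr84 alone in 6 and neither in 6. Among the 33 Il1a-low cells these numbers were 0, 1, 4 and 28.

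The list of cytokines and chemokines, which includes Tnf, had 14 of 22 genes measured. Of these, 6 were higher and 0 lower, against 20.2% of all genes higher, and the median stood 0.39 above that of all genes (0.79, 1.20 and 0.09 by plate). Ccl3, a chemokine that attracts monocytes, had 5.52, 994 and 10423 FPKM in Il1a-high cells and 4.56, 22.8 and 6527 FPKM in Il1a-low cells, a difference of 3.15. It reached 20 FPKM in 18 of 21 Il1a-high cells and 18 of 33 Il1a-low cells. Ccl4, its neighbour and relative, had 7.36, 46.8 and 19351 FPKM in Il1a-high cells and 7.48, 35.3 and 1557 FPKM in Il1a-low cells, a difference of 2.05 that rested on a minority of cells, since 12 of the 33 Il1a-low cells were above the Il1a-high median. Ccrl2, a non-signalling chemoattractant receptor, differed by 2.62, and Osm, oncostatin M, by 1.22. Il1b, the gene of interleukin-1 beta, reached 20 FPKM in 1 of 21 Il1a-high cells, with 2418 FPKM, and in 0 of 33 Il1a-low cells. That 0 allows a share of up to 9.09% by the limit of 3 cells and up to 10.6% by the exact Clopper-Pearson 95% bound. This bound covers counting error only. Il1rn, the receptor antagonist, and Il1r1, the receptor, were below the measured level.

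Of 17 genes of the interleukin-1 system other than Il1a, 8 were measured, and 4 of these were higher and 0 lower, against 20.2% of all genes higher. Their median stood 0.81 above that of all genes, with -0.014, 1.98 and 0.81 in plates 1, 2 and 3. The higher genes were Casp1 (2.49) and Casp4 (2.42), inflammatory caspases, Gsdmd (1.72), which forms pores in the cell membrane, and Il18 (1.65). Each reached 20 FPKM in a minority of cells. Casp1, Casp4 and Gsdmd did so in 8 of 21 Il1a-high cells each and in 1, 3 and 5 of 33 Il1a-low cells. Nlrp3, the sensor of an inflammasome, differed by 0.60 and was not counted as higher. With the immediate-early score as a covariate Gsdmd stood at -0.31.

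Genes of homeostatic microglia, the state of the uninjured tissue, were higher in Il1a-high cells. All 18 listed genes were measured, and 9 were higher and 0 lower, against 20.2% and 0.477% of all genes. Their median stood 1.22 above that of all genes, with 1.47, 0.18 and 1.96 in plates 1, 2 and 3. It was 1.18 with the number of genes as a covariate and 1.27 with the immediate-early score as a covariate. P2ry13, a receptor for ADP, had 68.99, 421 and 2033 FPKM in Il1a-high cells and 0.203, 4.41 and 2228 FPKM in Il1a-low cells, a difference of 4.42. Tmem119, a membrane protein used to mark microglia, had 24.2, 921 and 2670 FPKM in Il1a-high cells and 0.742, 90.2 and 2708 FPKM in Il1a-low cells, a difference of 3.19 (2.88, 2.46 and 3.14 by plate). All 21 Il1a-high cells reached 20 FPKM of both genes, against 11 of 33 Il1a-low cells for P2ry13 and 20 of 33 for Tmem119. Tgfbr1, a receptor of the TGF-beta signal that keeps microglia homeostatic, had a difference of 3.82, and 3.59 with the immediate-early score as a covariate. P2ry12, the ADP receptor that guides microglial processes, differed by 2.44, Gpr34 by 2.31 and Cx3cr1, the fractalkine receptor, by 1.56. Csf1r (0.46), Fcrls (0.23), Cst3 (-0.54) and Tyrobp (-0.61) were not counted in either direction. For Tmem119, 7 of the 33 Il1a-low cells were above the Il1a-high median. Lineage transcription factors stood 0.83 above all genes (1.13, 0.43 and 1.35 by plate), with 7 of 12 higher, against 20.2% of all genes. With the immediate-early score as a covariate that list stood at -0.0012 and Irf8 at -0.60.

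Genes of disease-associated microglia stood 0.49 below all genes, at a relative median of -0.49 (-0.79, -0.20 and -0.20 by plate). That median was -0.52 with the number of genes and -0.11 with the immediate-early score as a covariate. Of 15 measured members, 3 were higher and 1 was lower. The share of members higher was near the background of 20.2% of all genes, and 0.477% of all genes were lower. Fth1, the ferritin heavy chain that stores iron, had 421, 1364 and 3137 FPKM in Il1a-high cells and 733, 2840 and 15714 FPKM in Il1a-low cells, a difference of -1.05 (-0.78, -1.14 and -0.98 by plate). It was no longer counted as lower with the number of genes as a covariate (-0.73), with the immediate-early score as a covariate (-0.085) or with the mean of the within-plate differences (-0.97). Of the 33 Il1a-low cells, 28 were above the Il1a-high median of this gene. Cd9, a tetraspanin, had a difference of 1.88 in the other direction. Apoe, apolipoprotein E, had 9.96, 60.01 and 47670 FPKM in Il1a-high cells and 3.26, 95.9 and 55086 FPKM in Il1a-low cells. Its difference of -0.96 had no common sign in the plates (-1.68, 0.13 and -1.31). Interferon-response and antigen-presentation genes stood at -0.06 and -0.16 relative to all genes, and the plates disagreed in sign. By plate the values were -0.48, -0.68 and 0.35 for interferon response and 0.06, 1.43 and -0.70 for antigen presentation. Cd74, the invariant chain, had a difference of -1.57, with 0.09 in plate 2. Ifi27l2a, an interferon-induced gene, was lower by the count, at -1.40. Irf1, a transcription factor of the interferon response, differed by 2.81. Ribosomal protein genes stood at -0.60, with 7 of 90 higher and 3 lower and plate values of 0.19, -0.28 and -1.24.

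**Figure D4:**
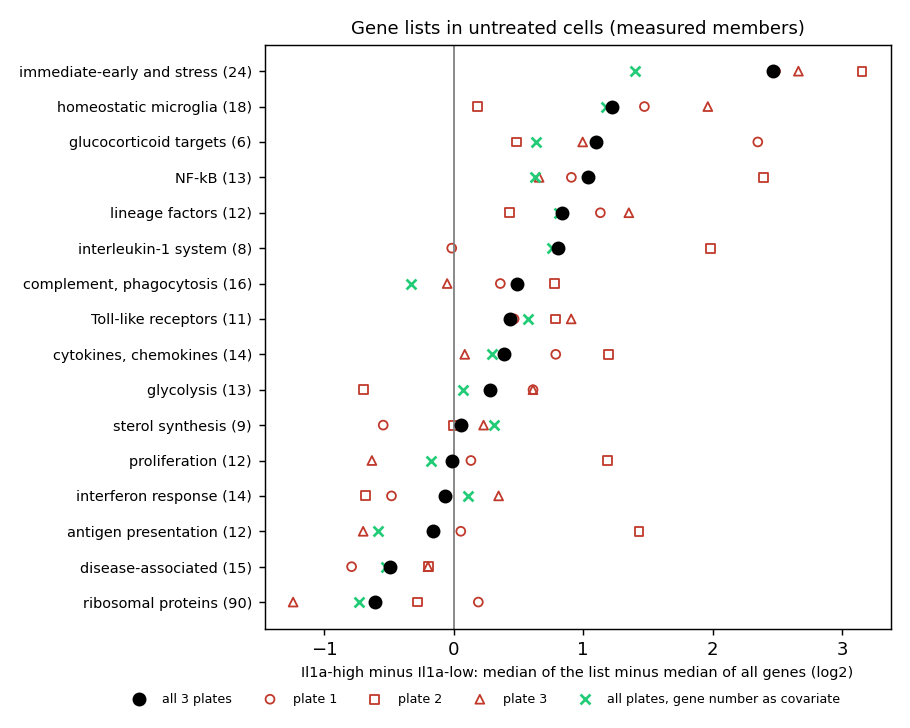
Median difference (Il1a-high minus Il1a-low, log2) of the measured members of 16 gene lists relative to the median of all genes, pooled (filled), in each plate (open) and with the number of genes per cell as a covariate (cross). Immediate-early and stress genes stand at 2.47, homeostatic microglia genes at 1.22 and disease-associated genes at -0.49.

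The 12 largest negative differences of mean log2(FPKM + 1) were between -1.85 and -1.25, and in 9 of the 12 the median of both groups was under 5 FPKM. On the scale of mean FPKM some were wide: Milr1 averaged 0.483 FPKM in Il1a-high cells and 69.4 FPKM in Il1a-low cells, while Ier2 averaged 2092 FPKM in Il1a-high cells and 291 FPKM in Il1a-low cells. The Milr1 mean in Il1a-low cells rested on few cells, since 5 of 33 reached 20 FPKM and the highest had 1707 FPKM. Its medians were 0.187 FPKM in Il1a-high cells and 0.659 FPKM in Il1a-low cells. Ccl5, a chemokine that attracts lymphocytes, had 0, 0.624 and 595 FPKM in Il1a-high cells and 0, 1.88 and 7595 FPKM in Il1a-low cells, a difference of -1.83 (-1.26, -3.26 and -1.86 by plate). It reached 20 FPKM in 1 of 21 Il1a-high cells and 7 of 33 Il1a-low cells. Mir5107, at -1.85, lies in the exons of Cd74, and its values cannot be told apart from those of Cd74. Atp5k and Atp5j2, subunits of the mitochondrial ATP synthase, differed by -1.69 and -1.25. The others were Nenf, Milr1, Ifi27l2a, Mrps18c, Rbbp4, Ciao2a, Zfyve21 and Leprotl1.

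The same split was made in cells after optic nerve crush, which the choice of untreated cells and of genes did not use, on the same 3 plates. At day 2 there were 30 Il1a-high and 24 Il1a-low cells, and 1254 of 8777 genes (14.3%) were higher and 57 (0.649%) lower. At day 4 there were 26 Il1a-high and 10 Il1a-low cells, and 2711 of 10130 genes (26.8%) were higher and 68 (0.671%) lower, judged in plates 1 and 3, because plate 2 held no Il1a-low cell. The gene number per cell differed there as well, with medians of 4013 in Il1a-high cells and 2360 in Il1a-low cells at day 2, and 4523 and 2521 at day 4. Of the genes higher in untreated Il1a-high cells, 507 were also higher at day 2, which is 35.1% of the untreated and 40.4% of the day 2 genes. At day 4 the shared number was 767, which is 53.2% of the untreated and 28.3% of the day 4 genes. In all 3 time points 349 genes were higher. Of the 34 genes lower in untreated cells, 0 were lower at day 2 or at day 4, and 3 and 5 were higher there.

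The immediate-early genes stood above the rest after crush too. The 12 genes with the largest positive differences in untreated cells were all counted as higher, 12 of 12 at day 2 with differences of 3.16 to 3.98 and 12 of 12 at day 4 with differences of 1.55 to 4.74. The list stood 2.32 above all genes at day 2, with 17 of 25 measured members higher, and 1.77 above at day 4, with 21 of 26. Of all genes, 14.3% were higher at day 2 and 26.8% at day 4. An immediate-early score of 5.26 or more was found in 24 of 30 Il1a-high cells and 5 of 24 Il1a-low cells at day 2, and in 21 of 26 Il1a-high cells and 1 of 10 Il1a-low cells at day 4. The interval from 3.05 to 5.26 was chosen because it held no untreated cell. After crush it held 5 of the Il1a-high and 4 of the Il1a-low cells at day 2, and 3 of the Il1a-high and 5 of the Il1a-low cells at day 4. Tnf differed by 2.28 at day 2 and 4.81 at day 4, and Gpr84 by 2.92 and 4.72. Homeostatic genes stood 1.24 above all genes at day 2, with 1.89, -0.19 and 0.79 in plates 1, 2 and 3 and 6 of 18 higher, against 14.3% of all genes. At day 4 they stood 1.49 above, with 1.93 and 1.58 in plates 1 and 3 and 13 of 18 higher, against 26.8% of all genes. Of the 12 largest negative differences, 10 were above 0 at day 2 and 8 at day 4. A difference between the time points was not tested.

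**Figure D5:**
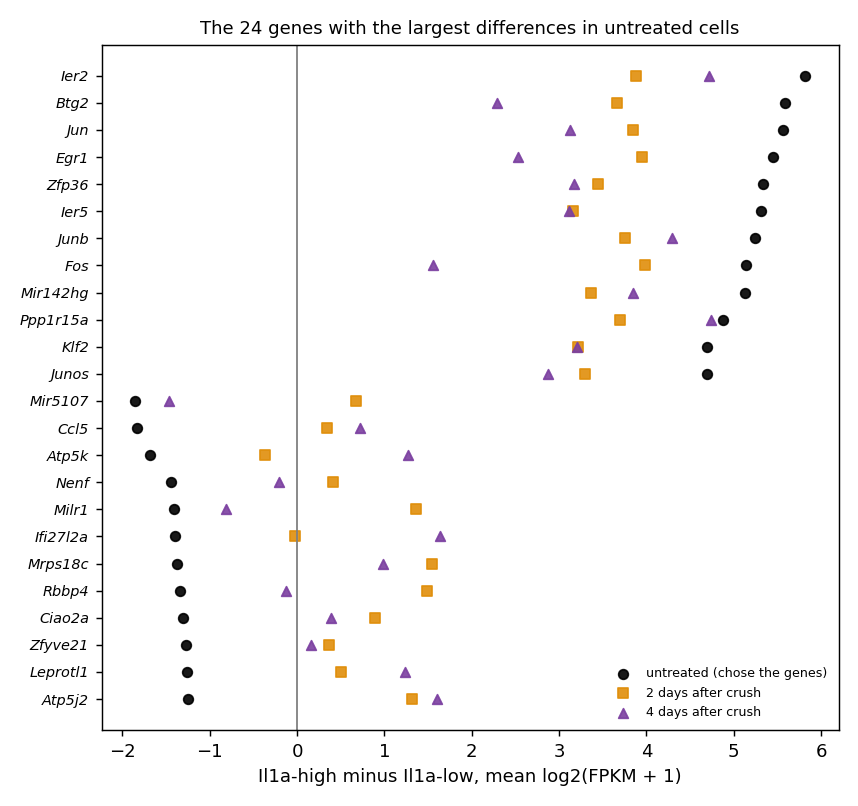
Il1a-high minus Il1a-low difference of mean log2(FPKM + 1) for the 12 largest positive and 12 largest negative differences of untreated cells (circles, which chose the genes), in cells 2 days (squares) and 4 days (triangles) after crush. The 12 positive genes lie at 1.55 or more at both later times, and of the 12 negative genes 10 lie above 0 at day 2 and 8 at day 4. The median of all measured genes is 0.38 at day 2 and 0.64 at day 4.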

How the data were processed

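Single Iba1-EGFP cells were sorted from the retina, 1 library per cell, and amplified cDNA was tagmented with Nextera XT, per the labels' protocols. Per the submitters' processing notes, reads went through STAR 2.7.2b, featureCounts 1.6.1, cutadapt 1.16, Trimmomatic 0.36 and Trim Galore 0.4.4, with builds named as GRCm38.p6 and mm10 and no further settings. The authors deposited 1 table of FPKM values for 55364 genes in 144 cells, with gene lengths. FPKM multiplied by length sums to 1e+09 in each cell, so a value is a share of that cell's assigned reads, and a change in some genes moves the share of others. No mitochondrial genes are among them (0).

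Groups and plates came from the labels, and Il1a groups from the threshold of 20 FPKM. Reads per cell were recovered from the step between low values. Of the values above 0, a median of 59.99% in Il1a-high cells and 61.98% in Il1a-low cells were whole reads within 0.01, so no count model was fitted. Of symbols listed more than once, 110 further entries were dropped and the entry with the highest mean was kept. Means of log2(FPKM + 1) were compared, which understates the change of low genes. Cells are not replicates, so no p-value or standard error was computed. Covariates were terms of a linear fit of log2(FPKM + 1). The share of cells at 20 FPKM has an exact Clopper-Pearson 95% interval, and a count of 0 was given the limit that 3 cells would set. Such an interval takes the cells as independent draws and covers counting error only. Genes were named by a rule: Tnf and Gpr84; the 12 largest differences in each direction among genes at FPKM 1 or more in at least 30% of cells with 1 sign in all plates; and up to 4 members per list with the largest difference relative to all genes, leaving out mitochondrial, ribosomal and uncharacterised genes except in the ribosomal list. Other members of the lists given in the text are named to account for the list. Malat1 and the genes of the promoter search were chosen after their values were seen. Some genes and 1 list are not reported here. The cells, lists and tests were chosen with earlier results of these data known. Alternatives were another pseudocount, filter, Il1a threshold, averaging, covariate, depth and set of plates or cells; the immediate-early score as a covariate was added after seeing the data. Scripts were tested on simulated data. Python 3.11.15, numpy 2.4.6, pandas 2.3.3, scipy 1.17.1 and matplotlib 3.10.9 were used.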

Additional observations from a re-analysis of the deposited data

Results flagged for a closer look

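For 8 named genes and time points the sign of the Il1a-high minus Il1a-low difference was one way in every plate of untreated cells and the other way in every plate with both groups after crush. The difference between time points was not tested, and plate 2 gives no value at day 4. At day 2, Milr1 had 1.36 (-1.41 in untreated cells), Rbbp4 1.48 (-1.34), Leprotl1 0.51 (-1.26) and Atp5j2 1.31 (-1.25). At day 4, Ccl5 had 0.72 (-1.83 in untreated cells), Atp5k 1.27 (-1.69) and the ribosomal protein gene Rps27rt 0.90 (-1.26), of whose values 96.2% were not whole reads, so that reads may be shared with its near-identical relatives. Casp1 was the exception in direction, with -0.53 at day 4 and 2.49 in untreated cells. All but Casp1 and Rps27rt were among the 12 genes chosen for the largest negative differences in untreated cells.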

How the results depend on the processing

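The count of higher genes, 1443, was 751 with a filter at 30% of cells (2834 genes tested), 531 with the number of genes as a covariate and 687 with the immediate-early score as a covariate. The count of lower genes, 34, was 99 with a pseudocount of 0.1, 191, 112 and 105 without plate 1, 2 and 3, 436 with the number of genes and 302 with the immediate-early score as a covariate, 531 with the log2 of the mean FPKM, 74 in cells of at least 2 M reads and 73 without cells with markers of another type. The immediate-early list, at 2.47, stood at 3.58 with the filter at 30% of cells, 1.40 with the number of genes as a covariate, 2.07 with the log2 of the mean FPKM and 0.12 with its own score as a covariate, which removes it by construction. The NF-kB list, at 1.04, stood at 2.41 with the filter at 30% and -0.038 with the immediate-early score. The cytokine list, at 0.39, stood at 2.35 with the log2 of the mean FPKM. The homeostatic list moved by less than the spread between plates in every alternative, and so did the difference in median genes per cell, 1141, which stayed between 1019 and 1292.

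Signs turned for C5ar1 with the number of genes (-0.28) and H2-DMa with the log2 of the mean FPKM (-0.12). With the immediate-early score they turned for the NF-kB list (-0.038), the lineage factors (-0.0012), Gsdmd (-0.31), Cd83 (-1.04), Cd14 (-0.34), Irf8 (-0.60), H2-K1 (-0.61) and C5ar1 (-0.67). Of 69 named genes that were called, 25 lost the call with the number of genes as a covariate and 1 more turned sign; with the immediate-early score these numbers were 38 and 6. The cause was not tested. No paired analysis was possible because no result comes from a test and the labels name no animal. The sterol list had no measured member at the filter of 30%. The 54 cells are 1 sample, which limits each result to these cells, and depth varied within each group.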

Other observations

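Further gene lists are given here by their counts and medians, to be read beside the 20.2% of all genes that were higher. Of 6 measured targets of glucocorticoids, hormones that restrain inflammation, 4 were higher in Il1a-high cells and their median stood 1.10 above that of all genes (2.35, 0.48 and 0.996 in plates 1, 2 and 3). It stood at 0.64 with the number of genes and 0.39 with the immediate-early score as a covariate. Tsc22d3, a glucocorticoid-induced inhibitor of inflammatory transcription, had 0.4004, 172 and 496 FPKM in Il1a-high cells (lowest, median, highest) and 0.167, 1.40 and 1076 FPKM in Il1a-low cells, a difference of 3.69. With the immediate-early score as a covariate the difference of Tsc22d3 was 0.71. Of 13 measured glycolysis genes 5 were higher, with a median of 0.28 relative to all genes and -0.70 in plate 2, and 0.076 with the number of genes as a covariate. Pfkfb3, which drives glycolysis, differed by 2.52 and Hk2, a hexokinase, by 2.39. Among complement and phagocytosis genes 7 of 16 were higher, at a median of 0.49 (0.36, 0.78 and -0.05 by plate). C3ar1, a complement receptor, differed by 3.34 and Mertk, a receptor for dying cells, by 3.29. With the number of genes as a covariate that list stood at -0.33. Toll-like receptor genes stood at 0.44 (0.47, 0.79 and 0.91 by plate), with 4 of 11 higher. Among them were Ly96 (2.38), a co-receptor of the lipopolysaccharide receptor, and Tlr13 (2.03). Tlr13 reached 20 FPKM in 6 of 21 Il1a-high cells and 0 of 33 Il1a-low cells. That 0 allows a share of up to 9.09% by the limit of 3 cells and up to 10.6% by the exact 95% bound. This bound covers counting error only. The highest Il1a-low value of Tlr13 was 0.912 FPKM. It thus passed the filter for measured genes only through Il1a-high cells, and its direction supports nothing further. No proliferation gene (0 of 12) and no sterol synthesis gene (0 of 9) was higher, with medians of -0.01 and 0.06 relative to all genes, against 20.2% of all genes counted as higher. By plate these medians were 0.13, 1.19 and -0.63 for proliferation and -0.54, 0.0022 and 0.23 for sterol synthesis.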
